A study of Mus musculus with 17 samples.

Results

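Polyamine metabolism was followed through 9 genes, chosen by name: Odc1, Amd1, Srm and Sms of synthesis, Azin1, Oaz1 and Oaz2 that regulate the first step, and Sat1 and Smox of breakdown. All 9 of 9 were listed in each of the 17 samples' files, among 13905 genes kept for the wild-type, Ctnnb1 and combined groups and 39179 kept for an inducible tumour model. RNA sequencing was run on frozen prostate or prostate tumour of C57BL/6 mice. Wild-type prostate came from mice of 12 months (n = 3). Tumours of the Ctnnb1 group carried the Ctnnb1pc(ex3)delta/+ allele, in which exon 3 of beta-catenin is deleted in the prostate and the protein escapes breakdown, at about 12 months (n = 3). Tumours of the combined group carried the same allele with a further engineered change that is not described here, at about 6 to 8 months (n = 3). The inducible model had the same combined alleles, recombined by the inducible Cre, CreERT2, and its tumours were taken at about 15 months after mock treatment (n = 2) or androgen deprivation therapy, ADT (n = 3). Age moved with genotype in the combined group, so the effects of age and genotype cannot be told apart there. A count over the whole gene cannot show the loss of exon 3 and checks no label. The labels do not say that each sample came from a separate animal, so p-values measure the spread between these samples.

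Polyamines are small positively charged molecules that bind nucleic acids and that growing cells need. Ornithine decarboxylase makes putrescine from ornithine, S-adenosylmethionine decarboxylase supplies the aminopropyl groups, and spermidine and spermine synthases add them in turn. Prostate epithelium makes polyamines in large amounts and secretes spermine into the seminal fluid, and Odc1 is a classic target of androgens and of Myc in other settings. Antizymes bind ornithine decarboxylase and send it to the proteasome, and the antizyme inhibitor binds the antizymes and frees the enzyme. Transcript levels were measured here, not polyamines or enzyme activity, and antizyme output also depends on ribosomal frameshifting that RNA levels do not show.

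The values were scaled read counts. As judged from the values themselves, the authors had scaled each library's gene counts with a size factor and rounded the result, so a total is not a sequencing depth, and how precisely reads were counted is unknown. Totals were 45675083 to 47248750 in wild type, 32455483 to 35120175 in the Ctnnb1 and combined groups and 30591734 to 32791101 in the inducible model. The 2 file sets were scaled apart and are not compared with each other. All tissue was bulk, so fewer cells of a type and less RNA per cell cannot be told apart. The summed level of 6 luminal epithelial markers was 69542 to 79682 in wild-type prostate, 69375 to 92429 in Ctnnb1 tumours and 79904 to 109634 in combined tumours. In contrast, 6 smooth muscle markers summed to 131900 to 167465 in wild-type prostate, 1265 to 2699 in Ctnnb1 tumours and 4837 to 16248 in combined tumours, and 6 of 6 were called lower in both. All 6 seminal vesicle markers were called lower in Ctnnb1 and 2 of 6 in combined tumours, from sums of 473623 to 4527457 in wild type. All 6 proliferation markers were called higher in both, from sums of 2000 to 2395 in wild type to 7634 to 9948 in Ctnnb1 and 9956 to 13678 in combined tumours. Macrophage markers summed to 2543 to 3195 in wild-type prostate, 5961 to 7398 in Ctnnb1 tumours and 6014 to 22907 in combined tumours. Of the other lists, skeletal muscle had 4 and 5 of 5 markers lower in Ctnnb1 and combined tumours in that order, neutrophils 3 and 4 of 4 higher, T cells 1 and 2 of 3 higher, B and plasma cells 0 and 2 of 4 higher, and endothelium 1 and 4 of 4 higher. Fibroblasts had 1 of 5 lower in Ctnnb1 and 3 of 5 higher in combined tumours, basal epithelium had 0 of 4 called, and luminal epithelium had 1 higher and 2 lower, then 2 and 2 of 6. No marker of the 12 lists was at 0 in every library of a group. By the test described below, 28.9% of all genes were called higher and 29.6% lower in Ctnnb1 tumours, and 28.3% and 29.5% in combined tumours. These marker differences moved with the genotype comparisons below, and their part in the changes of polyamine genes was not tested.

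Against wild type, tumours carrying the stabilised beta-catenin allele had lower transcript levels of every synthesis enzyme among the 9 genes and higher Smox, the spermine oxidase that turns spermine back into spermidine. In Ctnnb1 tumours 8 of 9 genes passed the test, which was the moderated test of limma on log2(value + 1) with Benjamini-Hochberg adjustment over all 13905 genes, at an adjusted p under 0.05. Of these 1 was higher and 7 were lower, with a median log2 change of -0.71 over the 9 genes. Over all genes 58.5% were called, 28.9% higher and 29.6% lower, with a median of 0.0028. In combined tumours 7 of 9 passed, 1 higher and 6 lower, with a median of -0.70, against 57.8% of all genes called, 28.3% higher and 29.5% lower. The share of members called lower was therefore above the background in both comparisons, while the share called higher was below it. Both comparisons use the same 3 wild-type libraries, so they are not independent of each other. Groups had no shared range for 8 of 9 genes in Ctnnb1 tumours, where this held for 71.5% of all genes, and for 9 of 9 in combined tumours, where it held for 66.1%.

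**Figure D1:**
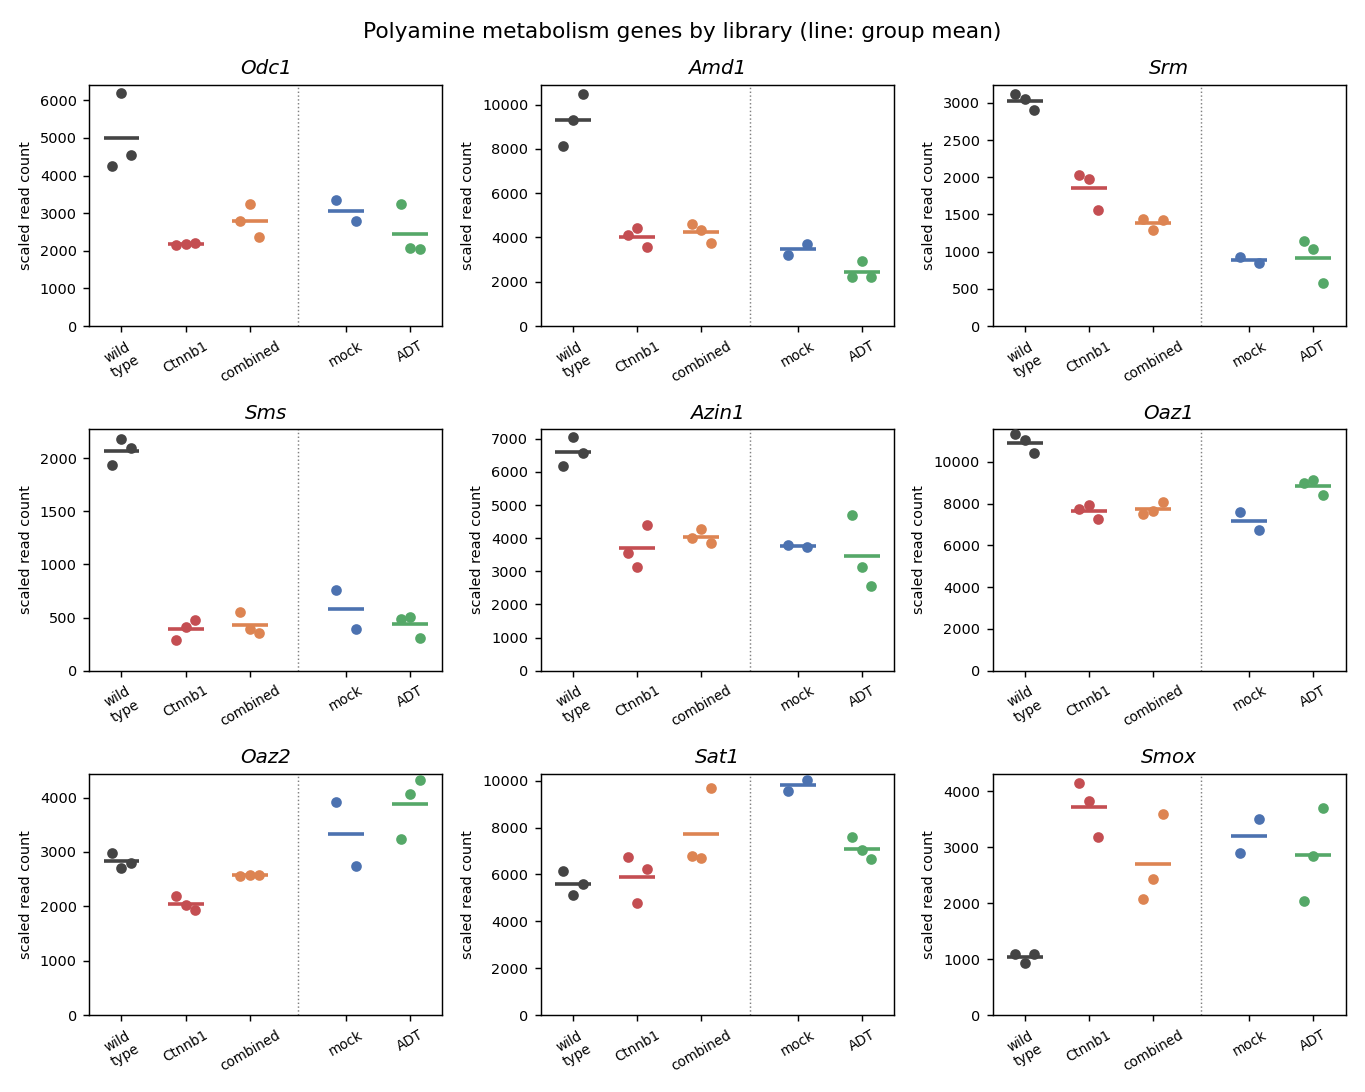
Scaled read count of each of the 9 genes (y axis, from 0) in each library (points) by group (x axis), with the group mean as a line. The dotted line separates file sets that were scaled apart. Wild type stands above all Ctnnb1 and combined libraries for Odc1, Amd1, Srm, Sms, Azin1, Oaz1 and Oaz2 and below them for Smox.

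The promoter sequences of the synthesis genes are shown because these genes were lower together. Of the 9 genes, 7 had an entry in the RefSeq promoter table (GRCm38.p6), and Srm and Azin1 had none. Windows ran from 250 bases before to 50 bases after an annotated start, and both strands were searched for CACGTG (the E-box bound by Myc with Max), CTTTGAT (a TCF/LEF motif, through which beta-catenin acts) and TGTTCT (the hexamer of androgen response elements). No search word overlaps another. Each line gives the bases upstream of the gene model inside that window, 5′ to 3′ on the gene's strand, with any of these motifs in capitals.
Odc1, chr12:17544623-17544793, plus strand: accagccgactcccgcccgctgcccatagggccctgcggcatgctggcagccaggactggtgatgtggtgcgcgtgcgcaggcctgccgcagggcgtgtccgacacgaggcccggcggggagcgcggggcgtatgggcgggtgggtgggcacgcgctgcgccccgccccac
Amd1, chr10:40302189-40302438, minus strand: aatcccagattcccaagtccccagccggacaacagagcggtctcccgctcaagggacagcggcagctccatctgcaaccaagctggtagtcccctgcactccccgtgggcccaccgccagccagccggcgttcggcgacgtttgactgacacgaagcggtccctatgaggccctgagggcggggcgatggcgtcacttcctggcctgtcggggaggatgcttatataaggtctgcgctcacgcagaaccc
Sms, chrX:157492288-157492537, minus strand: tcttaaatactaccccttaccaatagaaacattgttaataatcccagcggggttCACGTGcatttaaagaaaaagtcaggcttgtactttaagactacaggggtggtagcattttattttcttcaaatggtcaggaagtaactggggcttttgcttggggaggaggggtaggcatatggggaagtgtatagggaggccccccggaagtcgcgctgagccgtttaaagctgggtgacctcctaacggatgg
CACGTG was found in 1 of 7 members, Sms, starting 196 bases before the start, and in 8.09% of all 27025 genes with an entry. CTTTGAT was found in 0 of 7 and in 4.29% of all genes. TGTTCT was found in 2 of 7, Sat1 and Oaz2, and in 21.3% of all genes. The 7 members had 8 windows, because Sms had more than 1 annotated start, and CACGTG was in 1 of the 8. The Oaz2 window, with its TGTTCT match, lay inside the gene model at chr9:65676298-65676597. The Smox window and 1 of the Sms windows, which held no match, also lay inside their gene models. Sequence outside the windows was not searched, so no match here does not mean that a gene lacks the motif. A match is a run of letters and was not tested as a binding site.

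Odc1, ornithine decarboxylase (Entrez 18263, GRCm38 chr12:17544794-17551505, plus strand), is the rate-limiting enzyme that makes putrescine. Its scaled counts were 4253, 6202 and 4536 in wild-type prostate, 2169, 2175 and 2220 in Ctnnb1 tumours and 2786, 3241 and 2361 in combined tumours. The wild-type libraries all stood above both tumour groups, and the Ctnnb1 libraries lay close together and below every combined library. The log2 change was -1.17 ± 0.16 (SE, adjusted p = 3.96e-04) in Ctnnb1 and -0.83 ± 0.16 (adjusted p = 0.0022) in combined tumours.

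Amd1, S-adenosylmethionine decarboxylase (chr10:40287458-40302186, minus strand), makes the aminopropyl donor for both later steps. Libraries had scaled counts of 8110, 9309 and 10472 in wild-type prostate, 4117, 4414 and 3568 in Ctnnb1 tumours and 4622, 4329 and 3767 in combined tumours. All 6 tumour libraries were below the lowest wild-type library. The log2 changes were -1.20 ± 0.12 (adjusted p = 1.19e-04) and -1.13 ± 0.12 (adjusted p = 1.51e-04). The intronless copy Amd2 varied within wild type itself, with 674, 74 and 51, and reads shared between the copies could be counted under either.

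Srm, spermidine synthase (chr4:148591503-148594993, plus strand), adds an aminopropyl group to putrescine. It had scaled counts of 3114, 3046 and 2905 in wild-type prostate, 2029, 1979 and 1557 in Ctnnb1 tumours and 1440, 1288 and 1431 in combined tumours. The 3 groups did not overlap, with combined tumours lowest. The log2 change was -0.71 ± 0.11 (adjusted p = 6.92e-04) in Ctnnb1 and -1.13 ± 0.11 (adjusted p = 7.70e-05) in combined tumours.

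Sms, spermine synthase (chrX:157443855-157492287, minus strand), makes spermine from spermidine and had the largest fall among the 9 genes. Its scaled counts were 1937, 2178 and 2094 in wild-type prostate, 288, 409 and 475 in Ctnnb1 tumours and 550, 393 and 351 in combined tumours. Every tumour library was far below every wild-type library, and both tumour groups overlapped each other. The log2 change was -2.43 ± 0.21 (adjusted p = 6.29e-05) in Ctnnb1 and -2.29 ± 0.21 (adjusted p = 7.64e-05) in combined tumours. Sms is the 1 of 7 members with an E-box in a promoter window that was searched, capitalised in the sequence above.

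Smox, spermine oxidase (chr2:131491496-131525922, plus strand), was the only member called higher with the authors' scaling. It had 1084, 932 and 1084 in wild-type prostate, 4144, 3830 and 3181 in Ctnnb1 tumours and 2074, 2424 and 3587 in combined tumours. All 6 tumour libraries stood above wild type, with a wide spread among the combined ones. The log2 change was 1.84 ± 0.19 (adjusted p = 1.35e-04) in Ctnnb1 and 1.35 ± 0.19 (adjusted p = 5.98e-04) in combined tumours.

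Sat1, spermidine/spermine acetyltransferase (chrX:155213132-155216449, minus strand), marks polyamines for export or for oxidation by Paox. Its scaled counts were 6144, 5106 and 5574 in wild-type prostate, 6735, 4771 and 6228 in Ctnnb1 tumours and 6795, 6706 and 9695 in combined tumours. Wild-type and Ctnnb1 libraries overlapped, and the log2 change of 0.06 ± 0.17 did not pass (adjusted p = 0.765). Combined tumours lay above wild type in 3 of 3 libraries, and the change of 0.45 ± 0.17 did not pass either (adjusted p = 0.0559), though it passed without combined replicate 11 at 0.54 (adjusted p = 0.0478). The other catabolic genes moved apart from each other: Paox, the acetylpolyamine oxidase, was called higher at 0.35 ± 0.12 and 0.46 ± 0.12 (adjusted p = 0.0333 and 0.0108), and Sat2, a relative of Sat1 with little polyamine activity, lower at -0.89 ± 0.25 and -0.99 ± 0.25 (adjusted p = 0.0155 and 0.00962), in Ctnnb1 and combined tumours in that order. In Ctnnb1 tumours Paox did not pass without any of the wild-type replicates or without Ctnnb1 replicate 13 or 15 (0.30 to 0.38), and Sat2 did not pass without wild-type replicate 1 (-0.81) or Ctnnb1 replicate 13 (-0.73). In combined tumours Paox did not pass in the fit over 12 libraries (adjusted p = 0.0698).

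Among the regulators of ornithine decarboxylase, Azin1, the antizyme inhibitor (chr15:38487427-38519266, minus strand), had scaled counts of 6166, 7060 and 6575 in wild-type prostate, 3561, 3122 and 4391 in Ctnnb1 tumours and 3996, 4284 and 3862 in combined tumours. Every tumour library was below wild type, with log2 changes of -0.85 ± 0.12 (adjusted p = 5.43e-04) and -0.70 ± 0.12 (adjusted p = 0.00137). Azin1 shares 481 bases with an antisense gene, Gm49077, and the strand setting of the counting is not given in the sources used here. Oaz1, the main antizyme (chr10:80826656-80829290, plus strand), had 11324, 11045 and 10408 in wild-type prostate, 7758, 7915 and 7286 in Ctnnb1 tumours and 7486, 7641 and 8086 in combined tumours. Its fall was smaller, at -0.51 ± 0.06 (adjusted p = 3.03e-04) and -0.50 ± 0.06 (adjusted p = 3.46e-04). Oaz2, a second antizyme gene (chr9:65668001-65690300, plus strand), had 2980, 2700 and 2799 in wild-type prostate, 2190, 2029 and 1933 in Ctnnb1 tumours and 2552, 2576 and 2579 in combined tumours. It was called lower in Ctnnb1 at -0.46 ± 0.07 (adjusted p = 5.47e-04), and in combined tumours -0.14 ± 0.07 did not pass (adjusted p = 0.104) although the groups did not overlap. Annotated copies of Amd1, Sms, Oaz1 and Oaz2 exist, so reads of these genes may be split with them.

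**Figure D2:**
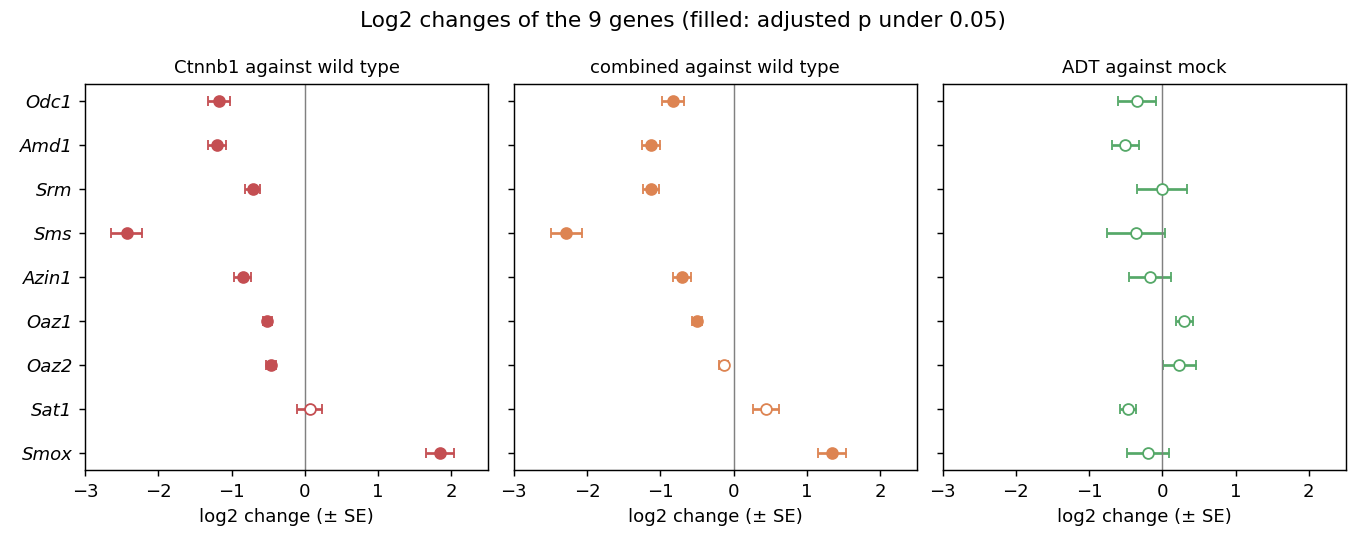
Log2 change (x axis, with SE as bars) of each of the 9 genes in 3 comparisons, on log2(value + 1). Filled points had an adjusted p under 0.05. In Ctnnb1 and combined tumours 7 and 6 genes are filled and left of 0 and Smox is filled and right of 0, and no gene is filled in ADT against mock.

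These changes hang in part on how the libraries were scaled, because wild-type totals were higher. Giving every library the same total moved the median change of all genes to 0.49 in Ctnnb1 and 0.50 in combined tumours, and 78.9% and 81.9% of all calls were then higher, against 49.4% and 48.9% with the authors' scaling. The fall of Sms (-1.94 and -1.77), Amd1 (-0.71 and -0.61) and the rise of Smox (2.33 and 1.86) passed the test under that scaling too. Odc1 fell by 0.68 in Ctnnb1 tumours, while in combined tumours -0.31 no longer passed (adjusted p = 0.111). Srm fell by 0.61 in combined tumours, while in Ctnnb1 tumours -0.22 did not pass (adjusted p = 0.0922). Azin1 passed in Ctnnb1 at -0.36 and did not in combined tumours at -0.19 (adjusted p = 0.218). Sat1 was called higher in both, at 0.56 and 0.96, and the falls of the antizyme genes were lost: Oaz1 stood at -0.02 and 0.02 and Oaz2 at 0.03 and 0.38, the last called higher (adjusted p = 9.25e-04). Rescaling a library shifts all its genes by nearly the same log2 amount. The order of the 9 changes and their distance from the median gene are therefore kept by construction and are no separate check. In Ctnnb1 tumours Odc1 stood -1.17 from that median with both scalings. Of the other genes named below, equal totals also ended the calls of Sat2 in both comparisons (-0.40 and -0.48), of Eif5a2 in Ctnnb1 (-0.63) and of Oat (-0.16) and Dohh (-0.19) in combined tumours. With upper quartiles made equal, all calls of the 9 genes stood as above except that Sat1 also passed in combined tumours (adjusted p = 0.0474).

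**Figure D3:**
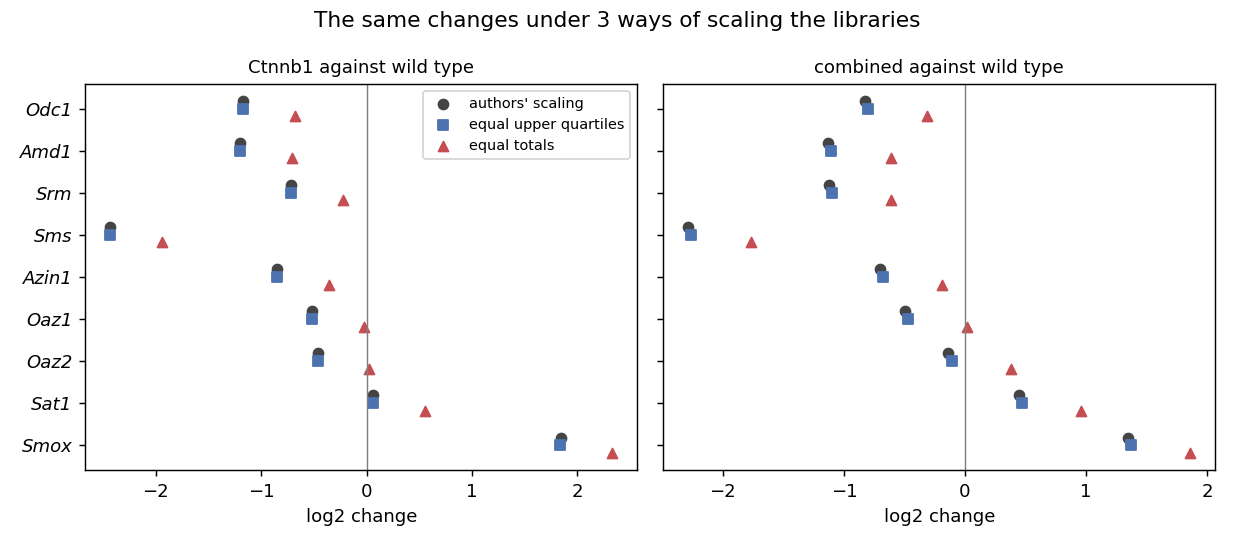
Log2 change (x axis) of each of the 9 genes against wild type under the authors' scaling (circles), equal upper quartiles (squares) and equal totals (triangles). With equal totals each point lies further right by about the shift of all genes, 0.49 or 0.50, and Oaz1 and Oaz2 then lie between -0.02 and 0.38.

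Ratios of 2 genes in the same library do not depend on the scaling. They are of scaled counts, not per length, so only their differences between groups are read. These 4 pairs were chosen with the values known, so their p-values are a description and no support for a difference. The ratio of Smox to Sms was 0.56, 0.428 and 0.518 in wild-type prostate, 14.4, 9.36 and 6.70 in Ctnnb1 tumours and 3.77, 6.17 and 10.2 in combined tumours. The geometric mean was 19.4-fold higher in Ctnnb1 and 12.4-fold higher in combined tumours than in wild type, with no overlap. Smox was higher and Sms lower in every tumour library, so this lack of overlap follows from the values given above. The ratio of Sat1 to Odc1 had geometric means of 1.13 in wild type, 2.67 in Ctnnb1 and 2.75 in combined tumours, again with no overlap. The two-sided exact permutation p was 0.1 for each of these differences, the smallest that 3 against 3 allows, and 0.24 after Benjamini-Hochberg adjustment over 12 tests. The ratio of Odc1 to Oaz1 had geometric means of 0.451 in wild type, 0.286 in Ctnnb1 (exact permutation p = 0.1, adjusted 0.24) and 0.359 in combined tumours (exact permutation p = 0.2, adjusted 0.27). Wild type and Ctnnb1 did not overlap, and wild type and combined did. The ratio of Azin1 to Oaz1 overlapped in each comparison, with geometric means of 0.604, 0.478 and 0.523.

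**Figure D4:**
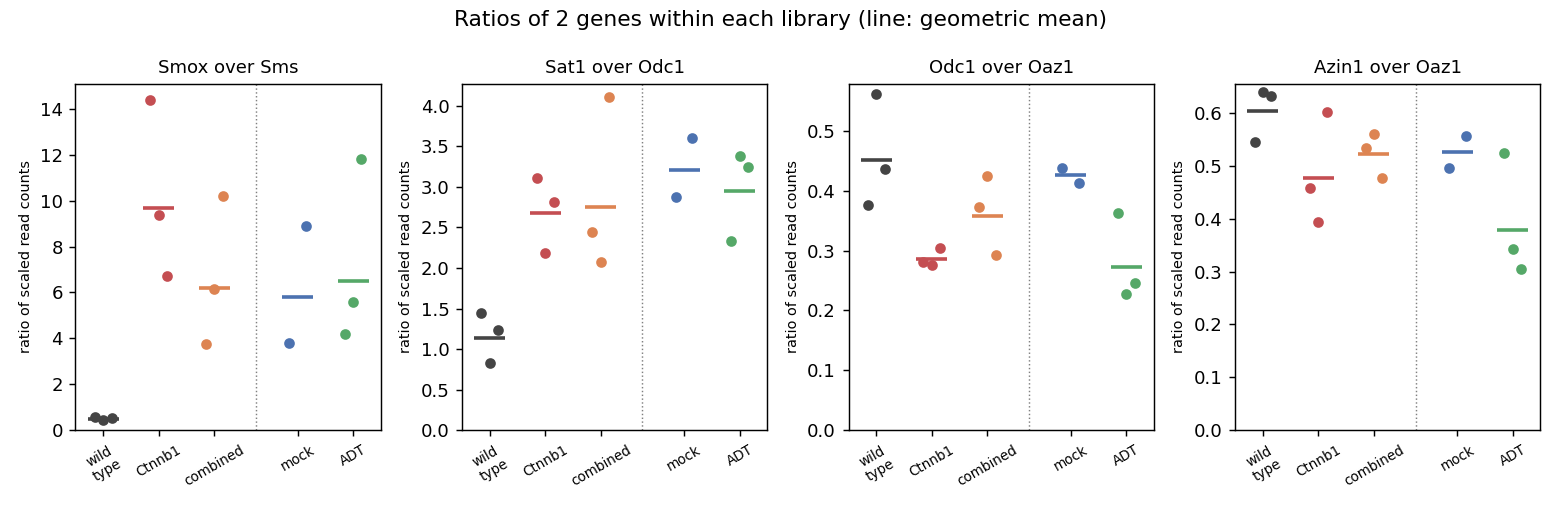
Ratio of the scaled counts of 2 genes (y axis, from 0) in each library (points) by group, with the geometric mean as a line. For Smox over Sms the 3 wild-type libraries lie between 0.428 and 0.56 and all Ctnnb1 and combined libraries lie at 3.77 or above.

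Per length, as scaled count per kilobase of exon, the order of the 9 levels also changed. In wild type Oaz1 was highest at 4271, followed by Amd1 at 2625, Sat1 at 2022, Srm at 1890, Odc1 at 1468, Azin1 at 1055, Oaz2 at 945.3, Sms at 344.4 and Smox at 265.4. Neighbours whose ranges overlapped there were Sat1 with Srm, Srm with Odc1, and Azin1 with Oaz2. In Ctnnb1 tumours Oaz1 at 2992 and Sat1 at 2131 led, Smox had moved up to rank 5 at 954.9, Odc1 stood at rank 7 with 642.6, and Sms was last at 65.0. Odc1 could not be told from its neighbours Oaz2 and Azin1 in that order, whereas Sms lay below all others. In combined tumours Oaz1 at 3025 and Sat1 at 2787 overlapped at the top, the 5 genes from Srm at 867.0 to Azin1 at 647.0 each overlapped the next, and Sms was again last at 71.8. In the inducible model Sat1 led in mock tumours at 3532 and Oaz1 in ADT tumours at 3450, and Sms was last in both at 95.9 and 72.5.

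The supply of arginine and ornithine, the precursors of putrescine, had 6 of 8 listed genes tested. Of these, 1 was called higher and 4 lower in each comparison against wild type, with medians of -0.86 and -0.54. Over all genes 28.9% were called higher and 29.6% lower in Ctnnb1, and 28.3% and 29.5% in combined tumours. Arg2, the mitochondrial arginase that releases ornithine, had 1594, 1839 and 1701 in wild-type prostate, 475, 603 and 506 in Ctnnb1 tumours and 605, 450 and 435 in combined tumours. Its log2 changes were -1.70 ± 0.15 (adjusted p = 6.02e-05) and -1.80 ± 0.15 (adjusted p = 4.37e-05). Arg1, the cytosolic arginase, moved the other way, from 112, 92 and 124 in wild type to 552, 395 and 790 in Ctnnb1 and 1395, 3836 and 1329 in combined tumours. It rose by 2.35 ± 0.42 (adjusted p = 0.00173) and 4.14 ± 0.42 (adjusted p = 1.05e-04). Arg1 is also abundant in some macrophages, whose summed markers were higher in both tumour groups, as given above. Whether those cells had a part in the rise of Arg1 was not tested. Aldh18a1, which makes the pyrroline carboxylate that feeds proline and ornithine synthesis, fell (log2 changes of -1.80 and -1.50). Oat, ornithine aminotransferase, fell in both (log2 changes of -0.53 and -0.68), and was followed under other scalings only in combined tumours. Ass1, argininosuccinate synthase, fell by 1.19 in Ctnnb1 while -0.26 did not pass in combined tumours (adjusted p = 0.395).

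Genes that make S-adenosylmethionine or recycle methylthioadenosine, the by-product of the aminopropyl steps, had 8 of 10 tested. In Ctnnb1 tumours 1 was called higher and 3 lower, and in combined tumours 2 higher and 4 lower. The share of all genes called, in either direction, was 58.5% in Ctnnb1 and 57.8% in combined tumours. Mat2a, the methionine adenosyltransferase of most tissues, had 18902, 20120 and 23635 in wild-type prostate, 8446, 8406 and 8468 in Ctnnb1 tumours and 7997, 9170 and 10121 in combined tumours. Mat2a makes the substrate of Amd1, and it fell, with log2 changes of -1.30 ± 0.11 (adjusted p = 5.03e-05) and -1.20 ± 0.11 (adjusted p = 6.62e-05). Adi1, a dioxygenase of methionine salvage, fell (log2 changes of -1.08 and -1.15). Apip, the dehydratase of an earlier step, fell too (-0.80 and -0.45), and was followed under other scalings only in Ctnnb1 tumours. Mtap, methylthioadenosine phosphorylase, rose by 1.25 ± 0.21 in combined tumours (adjusted p = 0.00132), and 0.35 ± 0.21 in Ctnnb1 did not pass (adjusted p = 0.187). Mri1, the isomerase that follows Mtap, rose by 0.56 in Ctnnb1 tumours (adjusted p = 0.00894). Mat2b, the regulatory partner of Mat2a, fell by 0.46 in combined tumours (adjusted p = 5.51e-04), and with equal totals it stood at 0.05.

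Transporters of polyamines and their precursors had 11 of 14 tested, with 3 higher and 5 lower in Ctnnb1 and 3 higher and 7 lower in combined tumours. Among all genes 28.9% were called higher and 29.6% lower in Ctnnb1, and 28.3% and 29.5% in combined tumours. Atp13a2, the lysosomal polyamine exporter, had 4379, 4225 and 4465 in wild-type prostate, 1994, 2259 and 1811 in Ctnnb1 tumours and 2013, 1993 and 1482 in combined tumours. It fell, with log2 changes of -1.11 ± 0.13 and -1.27 ± 0.13 (adjusted p = 2.14e-04 and 1.11e-04). Atp13a3, a related transporter linked to polyamine uptake, rose by 0.38 ± 0.09 and 0.59 ± 0.09 (adjusted p = 0.00825 and 9.14e-04). Slc22a3, an organic cation transporter, was low throughout and lower still in tumours, with 135, 84 and 115 in wild-type prostate, 3, 7 and 7 in Ctnnb1 tumours and 11, 7 and 12 in combined tumours. Slc7a1, the main cationic amino acid carrier, fell by 1.07 ± 0.11 in combined tumours (adjusted p = 1.13e-04), and -0.23 ± 0.11 in Ctnnb1 did not pass (adjusted p = 0.0967). Atp13a4, a further P5B-type transporter, was below 60 in wild type and at 0, 1 and 2 in Ctnnb1.

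Hypusination, the use of spermidine to modify the translation factor eIF5A, had 4 of 4 genes tested, with 0 higher and 1 lower in each comparison. The gene called lower was Eif5a2, the rarer paralog of the factor, at -1.12 ± 0.36 in Ctnnb1 (adjusted p = 0.0263) and Dohh, the hydroxylase of the last step, at -0.71 ± 0.11 in combined tumours (adjusted p = 8.87e-04). Eif5a2 did not pass without wild-type replicate 2 or 3 (-1.05 each) or without Ctnnb1 replicate 13 (-1.02) or 14 (-1.12). Eif5a itself had 0.24 ± 0.09 and -0.04 ± 0.09, and neither passed (adjusted p = 0.0575 and 0.717). Among other polyamine enzymes and regulators 1 of 4 tested genes was higher and 1 lower in each comparison, Paox and Sat2 as given above. Beside both of these lists, 58.5% of all genes were called in Ctnnb1 and 57.8% in combined tumours.

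Since Odc1 is a known Myc target, the Myc network was set beside it. In Ctnnb1 tumours 7 of 9 tested members were called higher and 1 lower, and in combined tumours 3 were higher and 1 lower. Shares over all genes were 28.9% higher and 29.6% lower in Ctnnb1, and 28.3% and 29.5% in combined tumours. Myc had 1638, 1710 and 1547 in wild-type prostate, 4009, 4590 and 4397 in Ctnnb1 tumours and 2209, 1655 and 2098 in combined tumours. It rose by 1.41 ± 0.11 in Ctnnb1 (adjusted p = 4.13e-05), the group in which Odc1 was lowest, and 0.27 ± 0.11 in combined tumours did not pass (adjusted p = 0.0635), though it passed without combined replicate 11 at 0.40 and with equal totals at 0.79. Mycl, a second member of the family, rose by 2.17 and 1.61, and Mxd3 of the opposing MXD group rose by 2.19 and 2.61 from 13 to 30 in wild type. Mga, a large Max partner, rose by 0.81 and 0.42.

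Androgen-response genes were set beside Odc1 for the same reason. Of 10 tested, 2 were higher and 6 lower in Ctnnb1 and 2 were higher and 7 lower in combined tumours, with medians of -1.56 and -1.74. Calls over all genes were 28.9% higher and 29.6% lower in Ctnnb1, and 28.3% and 29.5% in combined tumours. Pbsn, probasin, a secretory protein driven by the androgen receptor, had 555331, 420759 and 383138 in wild-type prostate, 7403, 65567 and 8439 in Ctnnb1 tumours and 39687, 9251 and 4885 in combined tumours. It fell, with log2 changes of -4.81 ± 0.95 (adjusted p = 0.00299) and -5.20 ± 0.95 (adjusted p = 0.00198). Slc45a3, prostein, fell (log2 changes of -2.42 and -2.35).

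In the inducible model none of the 9 genes was called between ADT and mock in limma, and 2 of them, Amd1 and Sat1, had an unadjusted p under 0.05. Over all 23289 genes tested 0.00859% were called, and 3779 genes had an unadjusted p under 0.05. The groups did not overlap for 3 of 9 genes, Amd1, Sat1 and Oaz1, and for 33.2% of all genes, so the count of members was near the background. Amd1 had 3224 and 3693 in mock and 2239, 2921 and 2201 in ADT tumours, a log2 change of -0.50 ± 0.18 (adjusted p = 0.282). Sat1 had 9570 and 10023 in mock and 7586, 7022 and 6679 in ADT, a change of -0.47 ± 0.11 (adjusted p = 0.187). Both mock libraries stood above all ADT libraries for these genes. Oaz1 had 7617 and 6742 in mock and 8972, 9116 and 8389 in ADT, a change of 0.30 ± 0.12 (adjusted p = 0.311), with all ADT libraries higher.

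Odc1 had 3340 and 2782 in mock and 3249, 2076 and 2057 in ADT, and the first ADT library lay between the mock values. The change was -0.34 ± 0.26 (adjusted p = 0.560). Azin1 had 3782 and 3746 in mock against 4698, 3120 and 2547 in ADT, and Srm had 931 and 845 against 1150, 1037 and 576. In each of these genes ADT replicate 1 was the highest ADT library, and for Azin1 and Srm the ADT values lay on both sides of mock. Sms, taken by its Ensembl number and listed in this model under the symbol Gm14680, had 761 and 392 in mock and 486, 509 and 312 in ADT. Smox had 2893 and 3493 against 2032, 2848 and 3693, and Oaz2 had 3923 and 2741 against 3245, 4070 and 4315. For these 3 genes mock and ADT overlapped as well. The ratio of Odc1 to Oaz1 was 0.438 and 0.413 in mock and 0.362, 0.228 and 0.245 in ADT, without overlap. Its exact permutation p was 0.2, the smallest that 3 against 2 allows (adjusted 0.27). The ratio of Smox to Sms overlapped, with geometric means of 5.82 in mock and 6.52 in ADT.

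None of the pathway lists had a called gene in ADT against mock, again beside 2 calls over all genes. Pbsn had 2533 and 2475 in mock and 0, 1 and 5 in ADT (adjusted p = 0.0657). Arg2 had 861 and 480 in mock and 24, 81 and 71 in ADT (adjusted p = 0.136). Gpc1, a proteoglycan linked to polyamine uptake, had 2629 and 3789 against 28113, 10558 and 11391 (adjusted p = 0.177). For these genes the groups did not overlap. Myc had 1308 and 2111 in mock and 1245, 1777 and 1549 in ADT. Marker sums of 4 lists were lower in every ADT library than in both mock libraries: luminal epithelium (83846 and 96074 in mock, 43427 to 54819 in ADT), smooth muscle (18800 and 29365 against 6341 to 16244), endothelium (9541 and 23178 against 6670 to 7123) and B and plasma cells (5954 and 7664 against 681 to 2909). The sums of the other 8 lists overlapped, among them macrophages (12285 and 42827 against 7705 to 12829) and proliferation (10958 and 11651 against 11563 to 23913). The part of these shifts in the values above was not tested.

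The genes whose profile was most like that of Odc1 were ranked by the root mean square difference of log2 profiles, each centred on its own mean. Over the 9 libraries of wild type, Ctnnb1 and combined tumours, Fam115a (0.12), Wrb (0.14) and Tmem241 (0.14) came first among 13065 candidates, where the median gene had 0.66. Fam115a had 2724, 3535 and 3365 in wild-type prostate, 1299, 1225 and 1483 in Ctnnb1 tumours and 1812, 1895 and 1402 in combined tumours. Wild type was highest there too, and 1 combined library lay within the Ctnnb1 range. Over the 5 libraries of the inducible model, Epb4.1l1 (0.046), Syngr2 (0.049) and Gmppa (0.054) came first among 15204 candidates, where the median gene had 0.49. Syngr2 had 3640 and 3329 in mock and 3729, 2478 and 2388 in ADT, with the first ADT library high as it was for Odc1. The libraries share their scaling, and with 9 and 5 libraries such likeness is a description only.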

How the data were processed

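RNA of frozen mouse prostate and prostate tumour (integrity above 7.3) was sequenced in paired 90 nt reads on a HiSeq 2000, 6 Gb or more for each sample, per the labels' protocols. The submitters' processing notes name GRCm38.p3 as the build and DESeq2 1.14.1, HTSeq 0.6.0, Bowtie2 2.2.6.0, TopHat2 2.1.0, FastQC 0.11.4 and R 3.2.3 as tools, without their roles. The deposited values are treated as a score: as judged from the values, the authors appear to have scaled each library's counts with a size factor and rounded them, so no count model was used and the depth is unknown.

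Some of the 15195 features of the wild-type, Ctnnb1 and combined files were left out. These lacked an Entrez number (631) or shared one with other features (270 features under 118 numbers). A further 389 had the same values in all 9 libraries as an earlier feature. From the 42847 features of the inducible model, 3668 that repeated an Ensembl number were left out. Genes with a value of at least 1 in 3 of the 9 libraries, or in 2 of the 5 of the inducible model, were tested with limma 3.58.1 in R 4.3.3 on log2(value + 1), with a trend in the prior variance and Benjamini-Hochberg adjustment over all genes tested, and called at an adjusted p under 0.05. SE is the moderated standard error. The 9 libraries were fitted together and the 5 alone, with group as the only factor. The limma test was tried on simulated data for Ctnnb1 against wild type and for ADT against mock, and no other step was. Ratios used exact permutation tests. Tables and figures were made with Python 3.11.15, pandas 2.3.3 and matplotlib 3.10.9. Gene positions and exon lengths come from GENCODE M21 (GRCm38).

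The members and lists were chosen with earlier results of these data known. Named genes are the 9 members, up to 4 called genes of smallest p in each of 7 pathway lists (otherwise up to 2 of largest change), Myc and Pbsn, and the 3 genes most like Odc1. Cell markers were summed for 12 lists. A further genotype group was used only in an alternative fit over 12 libraries and is not reported here, nor are some genes that the rule for names would take. Alternatives were another pseudocount, other filters, other scalings, other prior variances, other sets of libraries, each replicate left out, and the replicate number as a block.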

Additional observations from a re-analysis of the deposited data

How the results depend on the processing

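In both comparisons with wild type the number of the 9 genes called was 6 with equal totals and 7 or 8 under each of the other alternatives, including those that left out 1 library, and the number of calls over all genes stayed within 1.5 times. The directions changed with equal totals. Odc1, Sms, Amd1 and Azin1 were then called lower and Sat1 and Smox higher in Ctnnb1 tumours. In combined tumours Srm, Sms and Amd1 were called lower and Sat1, Smox and Oaz2 higher. Sat1 in Ctnnb1 tumours turned sign without wild-type replicate 2 (-6.97e-04) and without Ctnnb1 replicate 13 (-0.0368), in a range of -0.0368 to 0.21 with 1 library left out. With equal totals Oaz2 turned to 0.0279 in Ctnnb1 tumours, and Oaz1 (0.0184), Oaz2 (0.38) and Mat2b (0.0525) turned in combined tumours. The call of Paox in Ctnnb1 tumours was lost in 6 of 15 alternatives, that of Eif5a2 in 5 and that of Sat2 in 3, and in combined tumours that of Paox in 1 (the fit over 12 libraries, adjusted p = 0.0698). Equal totals shift all genes by construction.

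ADT against mock had 2 called genes and gave 5 with a pseudocount of 16, 172 with no filter, 50 with a mean of at least 10, 48 with equal totals (33 higher and 15 lower), 54 with equal upper quartiles, 29 with a robust prior, and 0 without the trend, without any single replicate and with the replicate block. The 9 genes had 0 calls in all of these. With 1 library left out, some signs turned, over ranges of -0.20 to 0.30 for Srm (0.0624 without mock replicate 1, 0.30 without ADT replicate 3), -0.84 to 0.12 for Sms (0.12 without mock replicate 1), -0.0277 to 0.49 for Oaz2 and -0.49 to 0.20 for Myc (their lowest and highest without mock replicate 2), -0.40 to 0.0289 for Smox (highest without ADT replicate 1) and -0.42 to 0.0246 for Azin1 (highest without ADT replicate 3). With the replicate block, Srm (0.30) and Azin1 (0.0246) turned too. Pbsn passed the test in 5 of 13 alternatives. Nothing in the labels pairs the numbers. Same-numbered libraries deviated with correlations of 0.22 and 0.12. Among differently numbered ones, mock replicate 2 had -0.22 with ADT replicate 1 and 0.14 with ADT replicate 3. Mock replicate 1 had -0.12 and -0.14 with ADT replicates 2 and 3. With 2 mock libraries their deviations mirror each other, so these values cannot decide whether libraries were paired. The causes were not tested. With 1 mock library left, its spread is assumed to equal that of ADT.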

Other observations

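Sbp, which encodes the spermine binding protein of prostate secretion, was named after its values were seen. Its scaled counts were 532758, 416786 and 636035 in wild-type prostate, 8, 38 and 17 in Ctnnb1 tumours and 124, 27 and 54 in combined tumours. In the inducible model they were 602 and 12206 in mock and 1, 1 and 30 in ADT tumours. Wild type stood above all Ctnnb1 and combined libraries, mock above all ADT libraries, and the mock libraries differed widely from each other.

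Azin2, the antizyme inhibitor of testis and brain, had 160, 160 and 179 in wild-type prostate, 86, 80 and 84 in Ctnnb1 tumours and 155, 329 and 74 in combined tumours. Its change in Ctnnb1, -0.99 ± 0.45, did not pass in limma (adjusted p = 0.0921).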
